A study of Mus musculus with 278 samples.

Results

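The chaperone genes described here are those whose symbols name the heat shock protein, J-domain and chaperonin families (symbols that begin with Hsp, with Dnaja, Dnajb or Dnajc and a number, or with Cct and a number from 2 to 8). The rule found 84 of the 23354 genes in the deposited matrix: 30 Hsp, 45 Dnaj and 9 Cct symbols. Of these, 65 could be tested, among 10452 genes in all, because 10% of the cells or more held them at 1 or more FPKM (fragments per kilobase, a level relative to transcript length and to the depth of the cell). The other 19 members were expressed in fewer cells, and 5 of them (Cct8l1, Dnajc22, Dnajc5b, Hspb7 and Hspb8) were listed at 0 in every cell.

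The cells were 278 single spermatogonia from untreated mice aged 6 days with an Id4-EGFP transgene, which reports a gene that marks spermatogonial stem cells. Testes of several pups were pooled, digested with trypsin, sorted for EGFP and captured on a microfluidic chip, where the brightness of each cell was imaged. All 278 cells were EGFP-positive; 74 were in the brightest quartile (Q1), 70 in Q2, 74 in Q3 and 60 in the dimmest quartile (Q4). They came from 5 preparations of 26, 62, 37, 75 and 78 cells, and a quartile of a preparation held 4 to 20 cells. Brightness reports the transgene in each living cell and does not itself mark a cell type, and no cell without EGFP was among the samples. A passage of the protocols numbers the dim quartile differently from the design text, whose order is used here.

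Chaperones bind unfolded proteins and let them fold, cross membranes or join complexes. HSP70 proteins work in cycles of ATP hydrolysis that J-domain (DNAJ) partners start, HSP90 proteins finish the folding of kinases, receptors and other clients, and the CCT chaperonin closes around actin and tubulin. Some members are made at all times, some are switched on by heat shock factor 1 (HSF1) when proteins unfold, and several in the mouse are known mainly from meiotic and postmeiotic germ cells.

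HSF1 binds heat shock elements and the unfolded protein response acts on ER stress response elements, so promoter stretches of the members that hold these motifs are shown first. Sequences are from the RefSeq promoter table (GRCm38.p6), which had the 250 bases before the start of 69 of the 84 members. The heat shock element core was searched as GAANNTTC and, for the reverse arrangement of the same units, TTCNNGAA; both strands are covered because each reads the same on the other strand. It stood in 6 of the 7 heat-inducible members with a promoter (85.7%), in 17 of all 69 members (24.6%) and in 14.5% of 27025 genes in the table. The inducible members that held it were Hspa1a, Hspa1b, Hspb1, Hsph1, Dnaja4 and Dnajb4. In the lines below, capitals mark the motif and each sequence runs 5′ to 3′ on the gene's strand.

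Hspa1a: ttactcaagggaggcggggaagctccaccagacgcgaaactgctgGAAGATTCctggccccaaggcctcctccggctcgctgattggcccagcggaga

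Hspa1b: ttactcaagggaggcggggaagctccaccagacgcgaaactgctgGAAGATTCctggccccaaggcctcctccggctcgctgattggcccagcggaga

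Hsph1: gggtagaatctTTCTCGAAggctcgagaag

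Hspe1: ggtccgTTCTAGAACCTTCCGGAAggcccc

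The Hspa1a stretch lies at chr17:34972208-34972305 on the minus strand and the Hspa1b stretch at chr17:34959290-34959387 on the minus strand, each with the core 104 to 97 bases before the start. These stretches are identical, and over 250 bases the promoters of this gene pair differ at 3. The Hsph1 stretch lies at chr5:149636351-149636380 on the minus strand, with its core 33 to 26 bases before the start, and overlaps an annotated exon of Hsph1. The Hspe1 stretch lies at chr1:55088053-55088082 on the plus strand, 89 to 72 bases before its start, and overlaps an annotated exon of the neighbouring Hspd1, which is read in the other direction. Its capitals span overlapping matches to the longer element, GAANNTTCNNGAA or TTCNNGAANNTTC, which 0.514% of the genes in the table held and which among the members stood in Hspe1, Hspd1 and Dnajb6. Hspe1 and Hspd1 form the mitochondrial chaperonin, and the matches in their promoters, on opposite strands, are the same bases.

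Another motif, the ER stress response element, was searched as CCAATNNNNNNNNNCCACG and its reverse complement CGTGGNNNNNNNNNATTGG. It stood in 0.13% of the genes in the table and in 3 of all 69 members. These were 3 of the 11 endoplasmic reticulum members with a promoter (27.3%), Hspa5, Hsp90b1 and Dnajc3. The first of these is shown with its single match and the next with a match on each strand.

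Hspa5: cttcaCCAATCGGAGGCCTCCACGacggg

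Hsp90b1: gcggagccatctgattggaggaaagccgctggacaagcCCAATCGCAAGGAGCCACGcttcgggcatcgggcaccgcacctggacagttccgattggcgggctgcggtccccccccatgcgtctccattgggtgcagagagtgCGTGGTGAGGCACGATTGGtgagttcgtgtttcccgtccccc

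The Hspa5 stretch lies at chr2:34772020-34772048 on the plus strand and overlaps an annotated exon of Hspa5, whose start in GENCODE is upstream of the RefSeq one. The Hsp90b1 stretch lies at chr10:86705510-86705694 on the minus strand. A match is a description of letters, and no binding was measured in these cells.

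Chaperone transcripts made up 1.93% ± 0.270 (SD over 278 cells) of the summed FPKM of a cell. The 7 CCT subunits held 0.851%, the 26 constitutive cytosolic and nuclear members 0.568%, the 13 members of the endoplasmic reticulum 0.191% and the 10 mitochondrial members 0.168%. The 8 heat-inducible members held 0.103%, and the 12 members known from germ cells and testis 0.0178%. Mean levels spanned from 0 to 1442 FPKM: 20 members were above 100 FPKM, 17 were below 1, and the highest 10 held 68.7% of the members' summed mean FPKM. Between 25 and 58 of the 84 members, with a median of 47, were detected (FPKM of at least 1) in a cell.

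**Figure D1:**
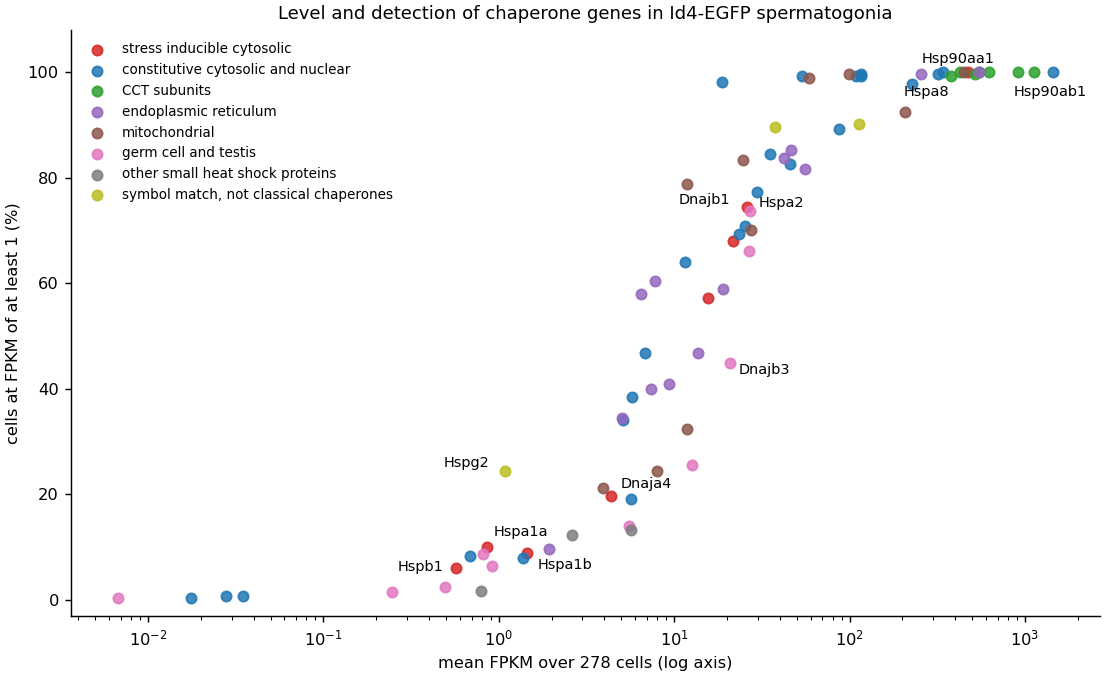
Each point is 1 of the 79 members with a mean above 0, plotted by its mean FPKM over 278 cells (x, log axis) and the percentage of cells at an FPKM of at least 1 (y), coloured by class. CCT subunits and Hsp90ab1 sit at the upper right, while Hspa1a, Hspa1b and Hspb1 lie at or below about 10% of cells. The 5 members listed at 0 in every cell are not drawn.

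The cytosolic HSP90 genes were among the most abundant members. Hsp90ab1, the constitutive form, averaged 1442 FPKM and ranked 22 among all genes. It was detected in every cell, with a lowest value of 130.9, a median of 1408 and a highest value of 3460 FPKM. Hsp90aa1, the form that heat induces further in most cells, averaged 475 FPKM and was also detected in every cell, from 163 to 1614 FPKM with a median of 434. Hsp90ab1 exceeded Hsp90aa1 in 274 of 278 cells, and the median ratio of their FPKM was 3.24 (range 0.509 to 10.6). By preparation the median ratio was 4.18, 3.82, 1.97, 2.74 and 2.82, lowest in preparation 3. That preparation had the highest mean Hsp90aa1, 684 FPKM, against 424, 440, 414 and 480 in preparations 1, 2, 4 and 5. Its Hsp90ab1 was not the lowest: the means were 1874, 1623, 1547, 1195 and 1343 FPKM in preparations 1 to 5. The ratio was also averaged over preparations for each EGFP quartile: Q1 had 3.05 ± 1.02, Q2 3.15 ± 0.875, Q3 3.50 ± 1.04 and Q4 3.34 ± 0.783 (SD, n = 5). These SD include the differences between preparations, and the ratio was not tested between quartiles within preparations.

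**Figure D2:**
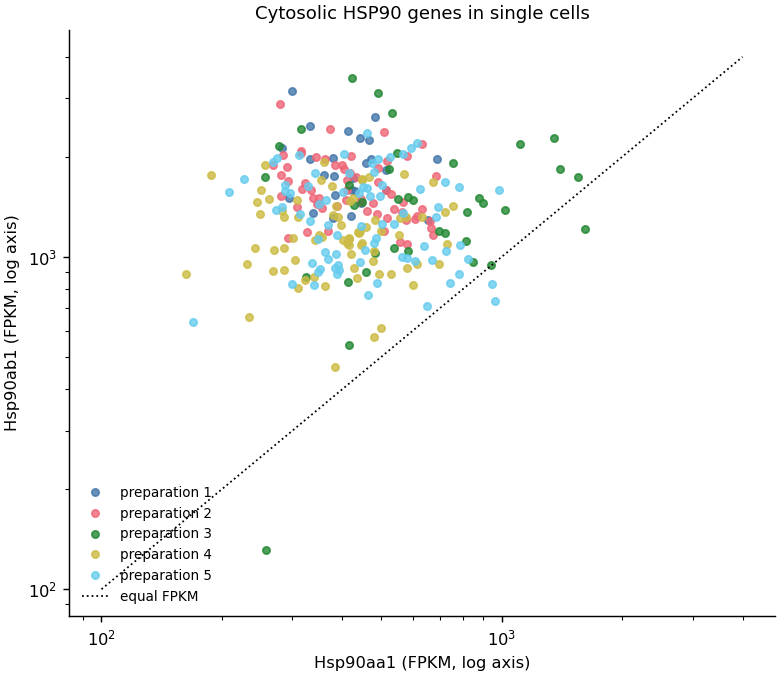
Each point is 1 cell, with Hsp90aa1 on the x axis and Hsp90ab1 on the y axis (both FPKM, log axes), coloured by preparation; the dotted line marks equal FPKM. Of 278 cells, 274 lie above the line, and the cells farthest to the right belong to preparation 3.

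Hspa8, the constitutive cytosolic HSP70, averaged 342 FPKM, and the ribosomal Hspa14 228 FPKM. Hspa8 was detected in every cell (106 to 873 FPKM). It made up a median of 94.4% of the summed FPKM of Hspa8, Hspa1a, Hspa1b, Hspa1l and Hspa2 in a cell, and 57.97% with Hspa14 added to the sum. Hspa1a and Hspa1b, the classical heat-inducible HSP70 genes, averaged 0.853 and 1.45 FPKM. Together they made up a mean of 0.620% of the sum without Hspa14, and 19.04% in the cell where their share was highest. Their coding sequences, of 1923 and 1926 bases, are 99.48% identical with 10 edits, so reads may have been split between them and only their sum is well placed. Either gene was detected in 49 of 278 cells (17.6%, 95% exact Clopper-Pearson interval 13.3 to 22.6%): Hspa1a in 28 cells, Hspa1b in 25 and both in 4. In cells where it was detected, the median level was 6.45 FPKM for Hspa1a and 9.89 FPKM for Hspa1b, with highest values of 22.02 and 63.1 FPKM. One fragment was worth about 0.540 FPKM on Hspa1a at the estimated median depth of 624541 fragments per cell, so typical positive cells held several fragments. By preparation, either gene was detected in 6 of 26, 15 of 62, 3 of 37, 12 of 75 and 13 of 78 cells. Hspa1a was detected in 0 of the 37 cells of preparation 3 (exact interval up to 9.49%). These intervals cover counting error only, and a value of 0 does not show that a cell lacked the transcript. The share of cells with either gene was averaged over preparations for each quartile: Q1 had 18.8 ± 6.40%, Q2 13.6 ± 7.98%, Q3 15.9 ± 9.64% and Q4 26.4 ± 29.7% (SD, n = 5). These SD include the differences between preparations, and the share was not tested between quartiles within preparations.

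The remaining inducible members differed widely in how often they were seen. Dnajb1, the main HSP40 partner of HSP70 in the heat shock response, averaged 26 FPKM and was detected in 74.5% of cells. Hsph1, which reloads HSP70 with ATP, averaged 21.6 FPKM in 67.99% of cells, and Dnajb4, a relative of Dnajb1, 15.6 FPKM in 57.2%. Dnaja4, a J-domain protein induced by heat, averaged 4.39 FPKM and was detected in 19.8% of cells, with a median of 14.1 FPKM where present. Hspb1, the small heat shock protein HSP27, was detected in 17 of 278 cells (6.12%, exact interval 3.60 to 9.61%).

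Detection of several of these genes differed between preparations. Dnajb1 was detected in 100, 87.1, 45.9, 73.3 and 70.5% of the cells of preparations 1 to 5. Dnajb4 was detected in 88.5, 72.6, 24.3, 57.3 and 50%, and Hsph1 in 88.5, 72.6, 45.9, 62.7 and 73.1%. For each of these 3 genes preparation 1 was the highest and preparation 3 the lowest. Dnaja4 was detected in 23.1, 35.5, 8.11, 17.3 and 14.1%, highest in preparation 2. Hspb1 was detected in 7.69, 6.45, 10.8, 4 and 5.13%, highest in preparation 3. These were only 2, 4, 4, 3 and 4 cells, with exact intervals as wide as 3.03 to 25.4% in preparation 3 and 0.946 to 25.1% in preparation 1. The order of its preparations is therefore uncertain. The median summed FPKM of the 8 inducible members, to which Hsp90aa1 gave most, was also highest in preparation 3: 480, 509, 610, 463 and 501 FPKM in preparations 1 to 5. Fos and Dusp1, immediate early genes of a class that tissue digestion is known to switch on, gave shares with the extremes of Dnajb1, Dnajb4 and Hsph1. These were 84.6, 50, 10.8, 16 and 30.8% for Fos, and 92.3, 69.4, 21.6, 44 and 42.3% for Dusp1. Over all immediate early genes examined, the median number detected was 9, 7, 4, 6 and 5 in preparations 1 to 5. Their median summed FPKM was instead lowest in preparation 5, at 321, 238, 165, 160 and 145. The mean number of detected genes per cell had the extremes of Dnajb1, Dnajb4 and Hsph1, at 7148, 6950, 4437, 6071 and 5875 in preparations 1 to 5. The estimated depth ran differently, with medians of 396084, 547301, 699568, 659056 and 700991 fragments. The part of detected genes or of the digestion response in the differences between preparations was not tested. Across cells within preparations, the number of inducible members detected had a Spearman correlation of 0.39 with the number of genes detected and of 0.24 with the number of immediate early genes detected (278 cells, which share libraries and depth). For their summed FPKM the correlation was -0.01 with the number of genes detected and 0.06 with the summed FPKM of immediate early genes.

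**Figure D3:**
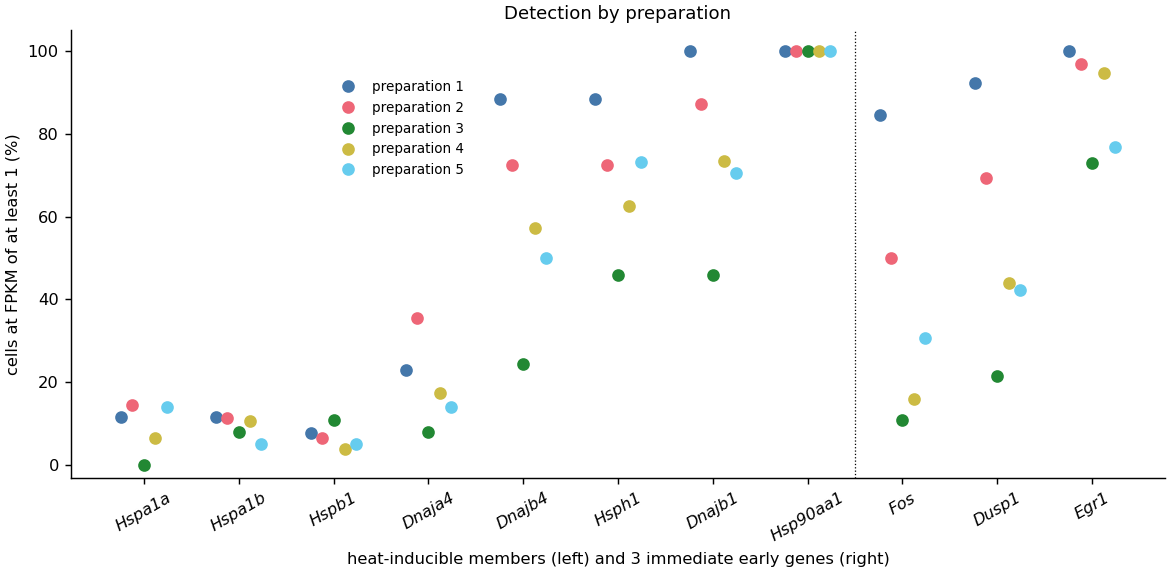
Percentage of cells at an FPKM of at least 1 (y) in each of the 5 preparations (coloured points) for the 8 heat-inducible members (left of the dotted line) and 3 immediate early genes (right). Dnajb1 runs from 45.9% in preparation 3 to 100% in preparation 1, and Hsp90aa1 is at 100% in all 5.

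No chaperone gene differed between Q1 and Q4 at an adjusted p under 0.05. The test was limma on the mean log2(FPKM + 1) of each preparation and quartile, with preparation as a block and Benjamini-Hochberg adjustment over 10452 genes. It called 0 of 65 members, where 0.0765% of all genes were called. The trend over the 4 quartiles called 0 of 65 members against 0.134% of all genes, and the test for any difference among quartiles called 0 members and 0% of all genes. The smallest adjusted p of a member was 0.275 for Q1 against Q4, 0.175 for the trend and 0.445 for any difference. At an unadjusted p under 0.05, 4 members were higher in Q1 (Dnajc28, Dnaja4, Cct3 and Hspa5) beside 10.4% of all genes, and 1 was lower (Hspg2) beside 1.03%. For the trend, 4 were higher toward Q1 (Dnaja4, Dnajc28, Hspa5 and Hspb3) beside 11% of all genes, and Hspg2 was lower beside 1.24%. For any difference, Dnaja4 and Dnajc13 passed beside 8.38% of all genes. The members' shares were below or near the background in each of these.

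The median difference Q1 minus Q4 was 0.13 over the 65 members on the log2(FPKM + 1) scale, with 47 above 0, and 0.17 over all genes tested, with 7263 of 10452 above 0. For 22 of the 65 members the mean FPKM of Q1 and Q4 stood in the opposite order to this difference, 21 of them lower in Q1 by mean FPKM, so their order depended on the scale. By class the medians were 0.46 over 6 inducible members, 0.29 over 5 germ cell members and 0.22 over 20 constitutive members. They were 0.10 over 10 mitochondrial members, 0.06 over 12 members of the endoplasmic reticulum and 0.01 over 7 CCT subunits. Cells of Q1 also had more detected genes, by 561 ± 379 (SD, n = 5) and in 5 of 5 preparations. With that number as a covariate, the median was 0.02 over the members and -0.02 over all genes, and the smallest adjusted p of a member was 0.799. As a share of summed FPKM over all members, Q1 had 1.95 ± 0.175%, Q2 1.98 ± 0.157%, Q3 1.98 ± 0.183% and Q4 1.93 ± 0.145% (SD, n = 5).

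**Figure D4:**
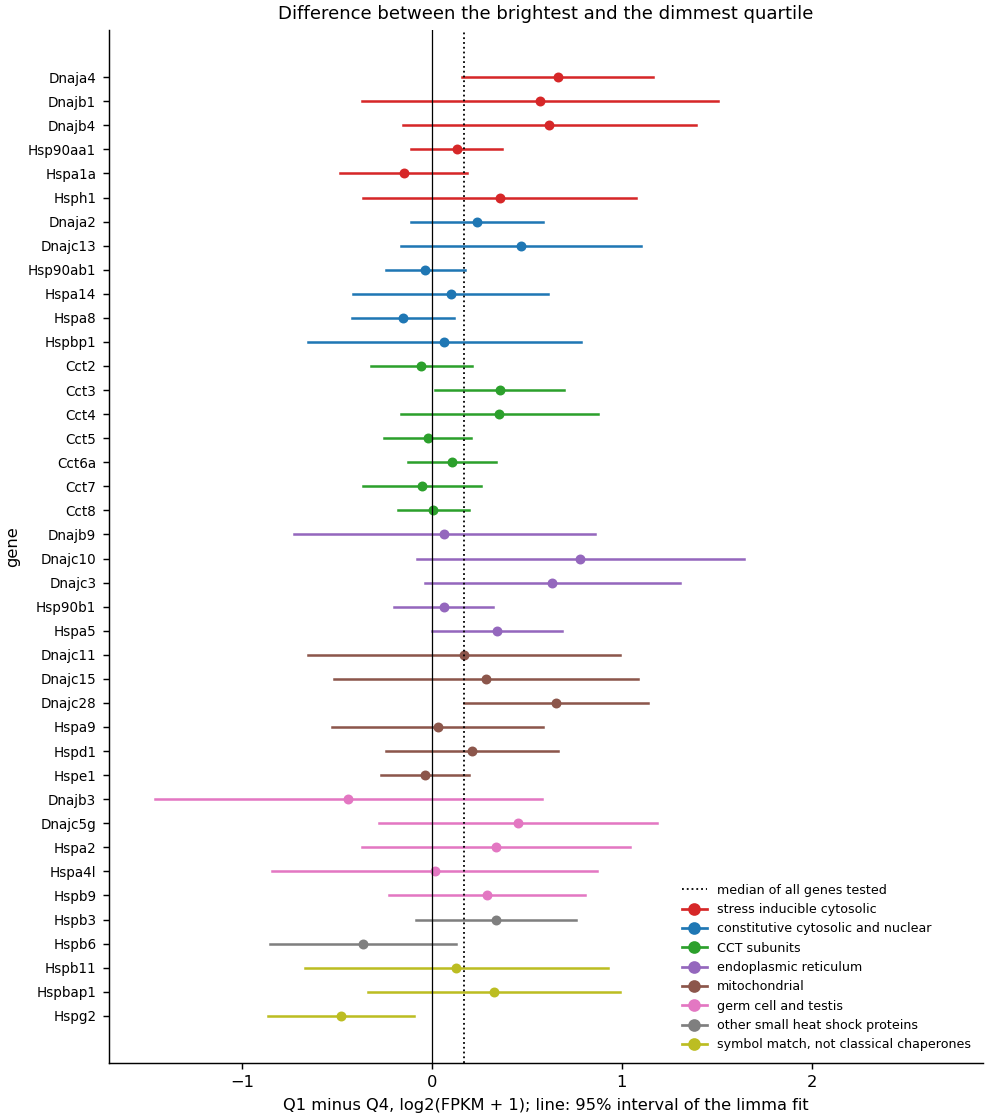
Difference Q1 minus Q4 in mean log2(FPKM + 1) for the 40 named members tested (points) with 95% intervals of the limma fit (lines), coloured by class; the dotted line is the median of all genes tested, 0.17. Intervals are narrow for CCT subunits and HSP90 genes and wide for members detected in part of the cells, such as Dnajb3.

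Dnaja4 had the lowest p of the inducible members. Its mean level in Q1 was 4.36, 9.98, 6.84, 2.74 and 5.98 FPKM in preparations 1 to 5, against 5.51, 3.57, 0, 0 and 0.0152 FPKM in Q4. The groups overlapped, most through preparation 1, whose Q4 held 4 cells. On the mean log scale Q1 was higher in 5 of 5 preparations, by 0.66 ± 0.24 (SE), with a limma adjusted p of 0.28. Over preparations Q1 averaged 5.98 ± 2.73 FPKM, Q2 6.29 ± 6.00, Q3 1.93 ± 1.48 and Q4 1.82 ± 2.58 FPKM (SD, n = 5). With detected genes as a covariate the difference was 0.28. The gene is overlapped on the other strand by Wdr61, and whether reads were assigned by strand is not given in the sources used here.

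The other inducible members had wide intervals. Hsph1 averaged 23.1 ± 9.78 FPKM in Q1 and 21.6 ± 6.51 FPKM in Q4 (SD, n = 5), with the higher value in Q1 in 3 of 5 preparations. Dnajb1 averaged 28.7 ± 17.9 FPKM in Q1 and 24.1 ± 10.6 FPKM in Q4, with a difference of 0.57 ± 0.46 (SE) on the log2 scale, higher in 3 of 5. For Hsp90aa1 the means were 513 ± 154 FPKM in Q1 and 448 ± 49.5 FPKM in Q4, and the difference was 0.13 with a 95% interval of -0.11 to 0.37. Hspa1a was 0.615 ± 0.790 FPKM in Q1 and 1.29 ± 0.879 FPKM in Q4, and its difference was -0.15 ± 0.16 (SE). Hspa1b was 3.06 ± 2.31 FPKM in Q1 and 0.715 ± 0.949 FPKM in Q4, the opposite order, and was not tested because it was detected in 8.99% of cells. Reads may have been split between Hspa1a and Hspa1b, so the separate order of each is uncertain. The 13 immediate early genes tested had a median difference of 0.56, all above 0, with 6 at an unadjusted p under 0.05 and a smallest adjusted p of 0.105. Their part in the values of inducible members was not tested.

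**Figure D5:**
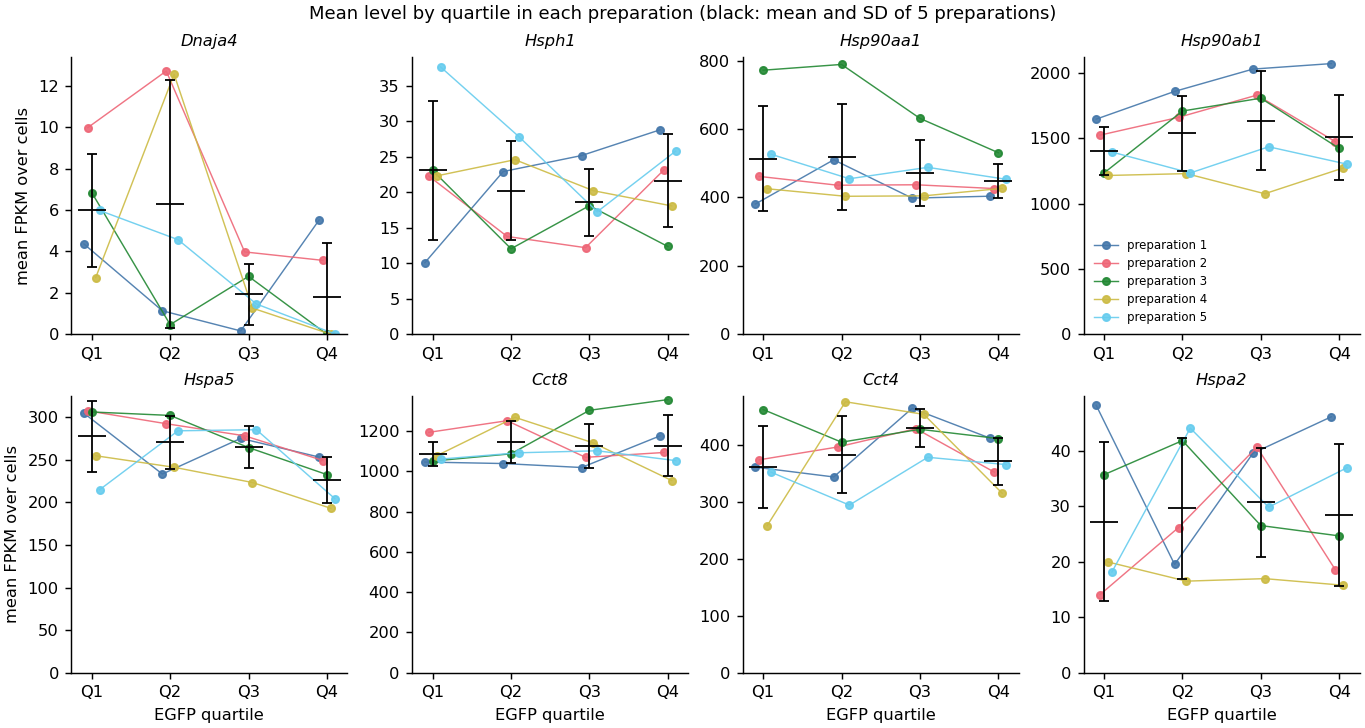
Mean FPKM over cells (y) in each EGFP quartile (x, Q1 bright to Q4 dim) for 8 members, with a coloured line for each of 5 preparations and black marks for their mean and SD. Lines cross for Hsph1 and Hspa2, Hspa5 averages 278 FPKM in Q1 and 227 FPKM in Q4, and Hsp90aa1 is highest in preparation 3 throughout.

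The CCT chaperonin was high in nearly every cell. It is built of 8 kinds of subunit, 7 of which the symbols cover, while the other is Tcp1. Mean levels were 1121 FPKM for Cct8, 918 for Cct5, 621 for Cct6a, 546 for Cct2, 517 for Cct3, 428 for Cct7 and 380 for Cct4, a 2.95-fold range on a scale corrected for transcript length. All 7 were detected together in 276 of 278 cells, 5 of them in every cell, and Cct8 ranked 42 among all genes. As a share of summed FPKM over the 7 subunits, Q1 had 0.865 ± 0.101%, Q2 0.856 ± 0.0734%, Q3 0.872 ± 0.0787% and Q4 0.859 ± 0.0909% (SD, n = 5). The 95% interval of the Q1 minus Q4 difference lay within 1 log2 unit of 0 for 7 of 7 subunits and within 0.5 for 5 of 7. For all members those counts were 42 and 11 of 65. Cct8 was the narrowest: it averaged 1086 ± 61.5 FPKM in Q1 and 1127 ± 151 FPKM in Q4, with a difference of 0.01 and an interval of -0.18 to 0.19.

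Cct3 and Cct4 gave the largest CCT differences, and both were smaller without preparation 3. On the mean log scale Cct3 was higher in Q1 in 4 of 5 preparations and Cct4 in 3 of 5. Cct3 averaged 375, 598, 662, 506 and 481 FPKM in Q1 of preparations 1 to 5, against 427, 526, 559, 466 and 401 FPKM in Q4. Its difference was 0.36 ± 0.16 (SE; limma adjusted p = 0.406) and 0.19 without preparation 3. For Cct4 the difference was 0.36 ± 0.25 (SE), although its mean FPKM was in the opposite order, 361 ± 72.6 in Q1 and 371 ± 41.2 in Q4. The Cct4 difference was -0.23 with detected genes as a covariate, and 0.06 without preparation 3. In Q4 of that preparation, 1 of 7 cells had Cct3 and 2 of 7 had Cct4 under an FPKM of 1. These 2 cells ranked 3 and 6 from the lowest of all 278 cells in detected genes.

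Although the subunits form 1 complex, their transcript levels hardly moved together from cell to cell. Over the 28 pairs of the 7 subunits and Tcp1, the Spearman correlation within preparations had a median of 0.01 and a highest value of 0.22. Over all pairs of 1973 common genes (detected in 90% of cells or more) the median was 0.01, and 95% of pairs lay between -0.16 and 0.17. These are descriptions over 278 cells that share libraries, with sampling noise that lowers any correlation. Tcp1 itself averaged 576 ± 59.4 FPKM in Q1 and 612 ± 93.4 FPKM in Q4, within the range of the 7 subunits.

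In the endoplasmic reticulum Hsp90b1 (GRP94) and Hspa5 (BiP), the main HSP90 and HSP70 of that compartment, led with 549 and 257 FPKM. Hspa5 averaged 305, 308, 306, 255 and 215 FPKM in Q1 of preparations 1 to 5, against 253, 249, 233, 193 and 205 FPKM in Q4. Within each preparation Q1 was above Q4, while the groups overlapped through preparation 5. The difference was 0.34 ± 0.17 (SE), with a limma adjusted p of 0.431. It was 0.19 with detected genes as a covariate. Hsp90b1 averaged 555 ± 27.3 FPKM in Q1 and 538 ± 40.3 FPKM in Q4, a difference of 0.06 with an interval of -0.20 to 0.32. Hspa5 and Hsp90b1 had a Spearman correlation of 0.24 across cells within preparations. Over all 276 pairs of common members (detected in 90% of cells or more) the median was 0.01 and the highest value 0.34. Hsp90aa1 had -0.12 with Hsp90ab1 and -0.16 with Hspa8. Whether a shared motif has a part in such values was not tested. Dnajc10, a J-domain protein that reduces disulfides, had the highest difference of all members, 0.78 ± 0.42 (SE; limma adjusted p = 0.489), with 3 of 5 preparations higher in Q1. It was 0.12 without preparation 5 and -0.02 with detected genes as a covariate. Dnajc3, an inhibitor of the eIF2 alpha kinase PERK, was 11.4 ± 4.38 FPKM in Q1 and 8.27 ± 3.33 FPKM in Q4, and was higher in 5 of 5 on the mean log scale (0.63 ± 0.32, SE; adjusted p = 0.465). Dnajb9 (ERdj4), a partner of BiP, was 52.3 ± 6.82 FPKM in Q1 and 65.3 ± 23.9 FPKM in Q4, while its fitted difference was 0.07 ± 0.38 (SE).

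The mitochondrial members were led by Hspe1, the lid of the mitochondrial chaperonin, with 447 FPKM in all cells. Its partner Hspd1, the barrel, averaged 58.7 FPKM, so that the ratio of means was 7.62. The annotation lists 6 processed pseudogenes named after Hspe1 and 5 after Hspd1, and exons of this gene pair overlap on opposite strands, so these levels are uncertain. Their Spearman correlation across cells was -0.07. Hspe1 had the smallest spread over cells within preparations among tested members (SD 0.43 on the log2 scale). It averaged 417, 320, 477, 500 and 493 FPKM in preparations 1 to 5, and preparation accounted for 90.9% of the sum of squares of its 20 means. Dnajc28, a little-studied J-domain protein, had the lowest p for Q1 against Q4 of all members. It averaged 3.26, 10.7, 7.84, 7.53 and 3.35 FPKM in Q1 of preparations 1 to 5, against 0, 0.988, 0, 3.57 and 4.19 FPKM in Q4. Its difference was 0.66 ± 0.23 (SE; limma adjusted p = 0.275), positive in 5 of 5 preparations on the mean log scale, and the groups overlapped. Dnajc15, a regulator of protein import, averaged 200 ± 38.8 FPKM in Q1 and 194 ± 33.6 FPKM in Q4. Hspa9 (mortalin), the mitochondrial HSP70, averaged 93.8 ± 16.2 FPKM in Q1 and 112 ± 30.3 FPKM in Q4, while its fitted difference was 0.03 ± 0.27 (SE).

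None of the constitutive cytosolic and nuclear members passed the test over quartiles. Hsp90ab1 averaged 1405 ± 186 FPKM in Q1 and 1510 ± 326 FPKM in Q4 (difference -0.03, 95% interval -0.24 to 0.17). Hspa8 averaged 324 ± 38.5 FPKM in Q1 and 370 ± 50.8 FPKM in Q4, was lower in Q1 in 4 of 5 preparations, and differed by -0.15 (interval -0.42 to 0.12). Dnaja2, a farnesylated partner of Hspa8, averaged 333 ± 86.7 FPKM in Q1 and 303 ± 82.4 FPKM in Q4. Hspa14, an HSP70 of the ribosome, averaged 229 ± 33.6 FPKM in Q1 and 236 ± 43.3 FPKM in Q4, while its fitted difference was 0.10 ± 0.25 (SE). Dnajc13, which acts on endosomes, was highest in Q3: Q1 had 10.8 ± 2.66 FPKM, Q2 10.4 ± 6.30, Q3 16.4 ± 1.87 and Q4 7.19 ± 3.97 FPKM (SD, n = 5; limma adjusted p for any difference = 0.484). Hspbp1, which releases nucleotide from HSP70, was among the most variable members over cells (SD 2.35 on the log2 scale).

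Among the 12 members known from germ cells, detection ranged from 73.7% of cells down to 0. Hspa2, the HSP70 that mouse spermatocytes need to complete meiosis, averaged 27.1 FPKM and was already detected in 73.7% of these cells. It made up a median of 4.57% of the summed FPKM of Hspa8, Hspa1a, Hspa1b, Hspa1l and Hspa2, and 70.5% in the cell where its share was highest. Hspa4l, an HSP110 relative rich in testis, averaged 26.8 FPKM in 66.2% of cells. Dnajb3, a J-domain protein of mouse spermatids, averaged 20.7 FPKM in 44.96%, Dnajc5g, a cysteine string protein of testis, 12.6 FPKM in 25.5%, and Hspb9, a testis small heat shock protein, 5.55 FPKM in 14.03%. Where detected, the median was 22.4 FPKM for Dnajb3, 25.9 for Dnajc5g and 31.6 for Hspb9, and single cells reached 577, 255 and 131 FPKM. Below the filter at 10% of cells, Hspa1l, the HSP70 of mouse spermatids, was detected in 6.47% of cells and Cct6b, the testis form of the CCT zeta subunit, in 8.63%. Cct6a, its constitutive counterpart, was detected in every cell at 621 FPKM, against 0.811 FPKM for Cct6b. Dnajb7, Dnajb13 (a sperm flagellum protein) and Dnajb8 were detected in 7, 4 and 1 of 278 cells. Cct8l1 and Dnajc5b were listed at 0 in all 278.

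None of the 5 tested germ cell members passed the test over quartiles. Hspa2 averaged 48.2, 14.1, 35.7, 20.0 and 18.1 FPKM in Q1 of preparations 1 to 5, against 46.1, 18.6, 24.7, 15.8 and 36.9 FPKM in Q4. The groups overlapped almost wholly, and the difference was 0.34 ± 0.34 (SE; limma adjusted p = 0.756). The mean FPKM of Hspa2 over preparations was in the opposite order, 27.2 in Q1 and 28.4 in Q4. Hspa4l averaged 27.1 ± 6.87 FPKM in Q1 and 46.8 ± 37.3 FPKM in Q4, with a fitted difference of 0.01 ± 0.41 (SE) on the log2 scale. Dnajb3 averaged 28.4 ± 14 FPKM in Q1 and 19.5 ± 18.3 FPKM in Q4, while its fitted difference was -0.44 ± 0.49 (SE), so its order depended on the scale. Dnajb3 had the largest spread over cells within preparations of all tested members (SD 2.54 on the log2 scale), ahead of Dnajb9 and Hspa4l. Dnajc5g averaged 13.8 ± 9.45 FPKM in Q1 and 10.6 ± 15.6 FPKM in Q4, and Hspb9 6.66 ± 5.22 FPKM in Q1 and 4.80 ± 4.87 FPKM in Q4.

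The remaining small heat shock proteins were sparse. Hspb3 and Hspb6, best known from muscle, were detected in 12.2% and 13.3% of cells, Hspb2 in 5 cells, and Hspb7 in none. Hspb3 averaged 3.67 ± 2.61 FPKM in Q1 and 1.13 ± 2.17 FPKM in Q4, and its trend was 0.14 ± 0.06 (SE) per quartile toward Q1 (limma adjusted p = 0.399).

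The rule also took in 3 genes that are not classical chaperones. Hspg2 encodes perlecan, a proteoglycan of basement membranes that shares only the letters of its symbol. It was the one member at an unadjusted p under 0.05 that was lower in Q1: 2.63, 0.259, 0.336, 0.385 and 0.364 FPKM in preparations 1 to 5, against 3.69, 2.55, 5.78, 0.911 and 0.731 FPKM in Q4. Q1 was below Q4 within each preparation, though preparation 1 made the groups overlap, and the difference was -0.48 ± 0.19 (SE; limma adjusted p = 0.312). It was -0.80 with detected genes as a covariate. Hspb11 (IFT25), a protein of ciliary transport, averaged 98.8 ± 24.9 FPKM in Q1 and 112 ± 50.1 FPKM in Q4, and Hspbap1, which binds Hspb1, 37.7 ± 10.0 FPKM in Q1 and 38.1 ± 6.77 FPKM in Q4. The fitted differences were in the opposite order, 0.13 ± 0.39 for Hspb11 and 0.33 ± 0.32 for Hspbap1 (SE).

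Outside the rule, 50 tested cochaperones and regulators had a median difference of 0.18, beside 0.17 over all genes tested. At an unadjusted p under 0.05, 2 of the 50 were higher in Q1 and 0 were lower, beside 10.4% and 1.03% of all genes. These were Ptges3 (p23, a cochaperone of HSP90), with 3354 ± 532 FPKM in Q1 and 2952 ± 635 FPKM in Q4 (0.18 ± 0.06, SE; limma adjusted p = 0.242), and Pdcl, a phosducin-like partner of CCT, with 26.4 ± 8.13 FPKM in Q1 and 11.7 ± 9.82 FPKM in Q4 (1.16 ± 0.35, SE; adjusted p = 0.192). Both were higher in Q1 in 5 of 5 preparations. The next lowest p were those of Bag1, which releases nucleotide from HSP70 (0.63 ± 0.31, SE; limma adjusted p = 0.447), and Unc45a, a myosin chaperone that works with HSP90 (0.55 ± 0.28, SE; adjusted p = 0.457). The heat shock factors Hsf1 and Hsf2 differed by 0.15 ± 0.39 and -0.02 ± 0.22 (SE). Hsf2 averaged 25.1, 36.7, 118, 74.6 and 54.1 FPKM in preparations 1 to 5, while its quartile means lay between 57.01 and 71.7 FPKM.

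More of the spread of the members' means went with preparation than with EGFP quartile. Over the 65 tested members the median share of the sum of squares of the 20 means was 44.7% by preparation and 7.69% by quartile. Over all genes tested these were 41.3% and 10.4%, and no test of the difference was made. After Hspe1, the highest share by preparation was 81.3% for Cct6a, which averaged 749, 757, 651, 511 and 563 FPKM in preparations 1 to 5. Within the inducible class alone, the highest was 76.8% for Hsp90aa1. Over all tested members the lowest was 6.94% for Hsp90b1, which averaged 515, 517, 619, 564.2 and 536 FPKM.

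The libraries had a median of 6320 detected genes (2569 to 7706). All 14 germ cell markers examined were in at least 10% of cells, Ddx4 and Dazl in 100%. Of 9 Sertoli markers 2 were in at least 10% of cells and 2 were at 0 throughout, of 9 peritubular and Leydig markers 1 and 4, and of 7 endothelial and macrophage markers 2 and 0. Summed Sertoli marker levels ran from 0 to 386 FPKM in Q1, to 277 in Q2, to 1169 in Q3 and to 134 in Q4, with a median of 0 in each, and their part in the members' values was not tested.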

How the data were processed

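Cells were captured on the Fluidigm C1, with SMARTer cDNA and Nextera libraries, per the labels' protocols. Per the submitters' processing notes the authors used FastQC, TopHat, Cufflinks and Picard with mm10 (GRCm38); what versions, annotation and strand setting they chose is not given in the sources used here. The values deposited by the authors are FPKM, a unit read from the quantifier's name and from the values because the header does not state it. FPKM are not counts, so no count test was used, and whole reads were not recovered. Depth was estimated from the smallest steps among low values of 2110 genes with 1 transcript of at least 1500 bases. It had a range of 203557 to 1232410 fragments, and 2 separate sets of these genes agreed within 1.25-fold in 268 of 278 cells.

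Cells are not replicates. Mean log2(FPKM + 1), with a pseudocount of 1, was taken over the cells of each quartile in each preparation (20 means). This scale understates changes of low genes. The means were weighted by cells and fitted with limma 3.58.1 (trend = TRUE) in R 4.3.3 with preparation as a block (12 residual degrees of freedom). Two-sided p-values had Benjamini-Hochberg adjustment over 10452 genes that reached an FPKM of 1 in 10% of cells or more, and a threshold of 0.05. Preparation numbers are the run numbers in the sample titles, taken here as preparations that each shared a cell suspension. The 30 pairs of means of the same preparation had a median correlation of deviations of 0.19 (lowest 0.08). For 120 pairs of different ones it was -0.07, but deviations were taken from the mean over preparations, which by itself pushes this value below 0. The parts of suspension, chip and library in these correlations were not tested. Separate litters are not stated in the labels. With preparation as a block, the p-values measure how differences between quartiles vary among these preparations, not the spread of levels between preparations.

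The members, gene lists and tests were chosen with earlier results of these data known. Members named were all inducible, CCT and germ cell members, the 4 highest of each other class, the 6 of lowest p in each test, and the 5 most and least variable; outside the rule, Tcp1, Hsf1, Hsf2 and the 4 cochaperones of lowest p were named. Dnajb6, Dnajc22 and Hspb8, the immediate early genes and the marker genes given as examples were named after their values were seen. Annotation was GENCODE M21: all 84 members matched, 29 are overlapped on the opposite strand, 10 share exons on the same strand and 6 have named processed pseudogenes, between which reads may be split. Tables were made with Python 3.11.15, numpy 2.4.6, pandas 2.3.3 and scipy 1.17.1. The fit was tested on simulated data. Alternatives tried were another pseudocount (0.1), filters (none, or 25% of cells), no block, detected genes as a covariate, scaling to the 75th percentile, the log of the mean, and each preparation left out.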

Additional observations from a re-analysis of the deposited data

Results flagged for a closer look

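Of the 40 named members tested, 3 had 1 preparation whose Q1 minus Q4 difference lay far from those of the other 4 preparations by Dixon's criterion at 5 values (0.71). Chance marks about 1 in 20 such groups. For Cct3 the difference was 1.48 in preparation 3, against -0.15 to 0.32 in the others, and for Cct4 it was 2.24 in preparation 3, against -0.15 to 0.35. Both are CCT subunits and share 1 cell of Q4 that was under an FPKM of 1 for each. For Dnajc5g, a cysteine string protein of testis, the difference was -1.76 in preparation 1, against 0.25 to 0.89 in the others. There the gene was at an FPKM of at least 1 in 4 of 8 cells of Q1 and in 3 of 4 cells of Q4.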

How the results depend on the processing

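No member was called for Q1 against Q4 or for the trend under any of the 12 alternatives, and the smallest adjusted p of a named member in any of them was 0.125 (limma, 75th percentile scaling). The test for any difference called 0 genes in each of them. The count of all genes called for Q1 against Q4, 8, was 0 with no filter, with no replicate block, with the detected-gene covariate and with the log of the mean, 44 with 75th percentile scaling, and 0 to 11 leaving out 1 preparation. For the trend, 14 genes, it was 0 in the same 4 settings, 64 with that scaling, and 0 to 9 leaving out 1 preparation. Counts with no filter draw on more genes tested. The block thus moved counts over all genes, while the members called stayed at 0 without it. The median difference over all genes, 0.17, was 0.32 with a pseudocount of 0.1, 0.26 with 75th percentile scaling, 0.06 with the log of the mean, 0.05 with no filter and -0.02 with the covariate, so single differences are best read against these. Of 40 named members tested, 17 kept the sign of Q1 minus Q4 in each alternative that gave a value and 23 did not; the cause was not tested. For 7 of the 17 the filter at 25% of cells gave none. On the log2 scale the turned values with 75th percentile scaling were Cct2 0.17, Cct5 0.20, Cct7 0.17, Hsp90ab1 0.19, Hspa8 0.0749 and Hspe1 0.19. With detected genes as a covariate they were Cct4 -0.23, Cct7 0.37, Cct8 -0.0011, Dnajb4 -0.42, Dnajb9 -0.42, Dnajc10 -0.0197, Dnajc15 -0.76, Hsp90ab1 0.25, Hspa4l -0.44, Hspa9 -0.25, Hspb11 -0.61, Hspbap1 -0.14, Hspbp1 -0.65 and Hspd1 -0.0259. With the log of the mean they were Cct4 -0.071, Dnajb1 -0.0088, Dnajb3 0.25, Dnajb9 -0.21, Dnajc15 -0.0431, Hspa14 -0.0477, Hspa2 -0.17, Hspa9 -0.21, Hspb11 -0.10 and Hspbp1 -0.16. Leaving out 1 preparation, the ranges of members that turned were Cct5 -0.14 to 0.11, Cct7 -0.14 to 0.0485, Cct8 -0.0424 to 0.0611, Dnajb3 -0.73 to 0.39, Dnajb9 -0.23 to 0.40, Dnajc11 -0.14 to 0.48, Dnajc15 -0.18 to 0.83, Hsp90ab1 -0.10 to 0.0301, Hspa14 -0.0836 to 0.40, Hspa4l -0.43 to 0.27, Hspa9 -0.13 to 0.20, Hspb11 -0.24 to 0.34, Hspbp1 -0.23 to 0.46 and Hspe1 -0.0711 to 0.0128. Of 65 intervals, 23 reach beyond 1 log2 unit, and the part of depth in this was not tested.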
